A study of Mus musculus with 16 samples.

Results

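The Hox genes are the homeobox genes of the Hoxa, Hoxb, Hoxc and Hoxd clusters. They were taken as all rows of the deposited tables whose symbol is Hoxa, Hoxb, Hoxc or Hoxd followed by a number, which gave 39 of the 21878 mRNAs. RNA-seq was performed on cells described as CD11b+/CD45int microglia, sorted by fluorescence-activated cell sorting (FACS) from the brains of wild-type female C57BL/6 mice that were 8 weeks old, with 1 library per mouse. In the 8 mice with experimental autoimmune encephalomyelitis (EAE), a model of multiple sclerosis, disease was induced with the MOG peptide of residues 35–55 in complete Freund's adjuvant and pertussis toxin on days 0, 2 and 7. The 8 control mice received PBS injections, and brain tissue was taken 14 days after induction. Libraries are named by group and replicate number, such as EAE 1 and PBS 8. The methods give the last MOG residue as 55, while in the treatment labels it rises from 55 in EAE 1 to 62 in EAE 8.

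Hox genes encode transcription factors that give segments along the head-to-tail axis their identity. Within each cluster the genes are numbered by paralog group, and their order on the chromosome follows the order of their expression along the axis. Low-numbered paralogs are expressed in the hindbrain, and middle and high-numbered paralogs in the spinal cord and the trunk. The forebrain is not patterned by them, so that Hox transcripts in brain RNA can be read as a marker of hindbrain and spinal cord tissue. Whether they carry such a readout in these libraries is what the comparisons below address.

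Hox transcripts were close to the limit of detection in both groups. Of the 39 Hox genes, 16 had 0 counts in all 16 libraries, where 10.1% of all mRNAs in the tables did. A further 18 had between 1 and 15 counts in total, and 5 reached the 16 counts that were required for testing. Among these 5 were Hoxa3, Hoxb3, Hoxb5 and Hoxd3, and 81.7% of all mRNAs reached the same total. The median total over the 16 libraries was 4 counts for a Hox gene and 3976.5 counts for an mRNA of the tables. All Hox genes together held 267 of 453039191 counts, 91 in the EAE libraries and 176 in the PBS libraries. With 95% confidence, a true level of up to 3 counts can give a count of 0, so that a gene with 0 counts over all libraries lies under 0.00662 CPM (counts scaled to a common library total). Such limits and the intervals given here cover counting error alone.

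Among the 624 values of 39 genes in 16 libraries, 511 were 0, 64 were 1 and 24 were 2 or 3. Only 25 values were above 3 counts, 9 in EAE and 16 in PBS libraries, and the highest was 10. No Hox gene was detected in every library, and Hoxb3 was detected in the most, 12 of 16. In 26 of the 39 genes, no library was above 3 counts. Of the 23 genes with counts, 17 had more counts in the PBS group, 4 had more in the EAE group and 2 had equal numbers. These raw counts are not scaled by depth, and the same numbers over all mRNAs were not taken. The PBS libraries held 240550688 counts of all mRNAs and the EAE libraries 212488503. Of the PBS Hox counts, 45.5% lay in PBS 1 and PBS 5. Hoxb8, with 4 counts in EAE 2, was detected in EAE libraries alone. Hoxb6, Hoxc5 and Hoxc8 were detected in PBS libraries alone, with 3, 4 and 4 counts.

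**Figure D1:**
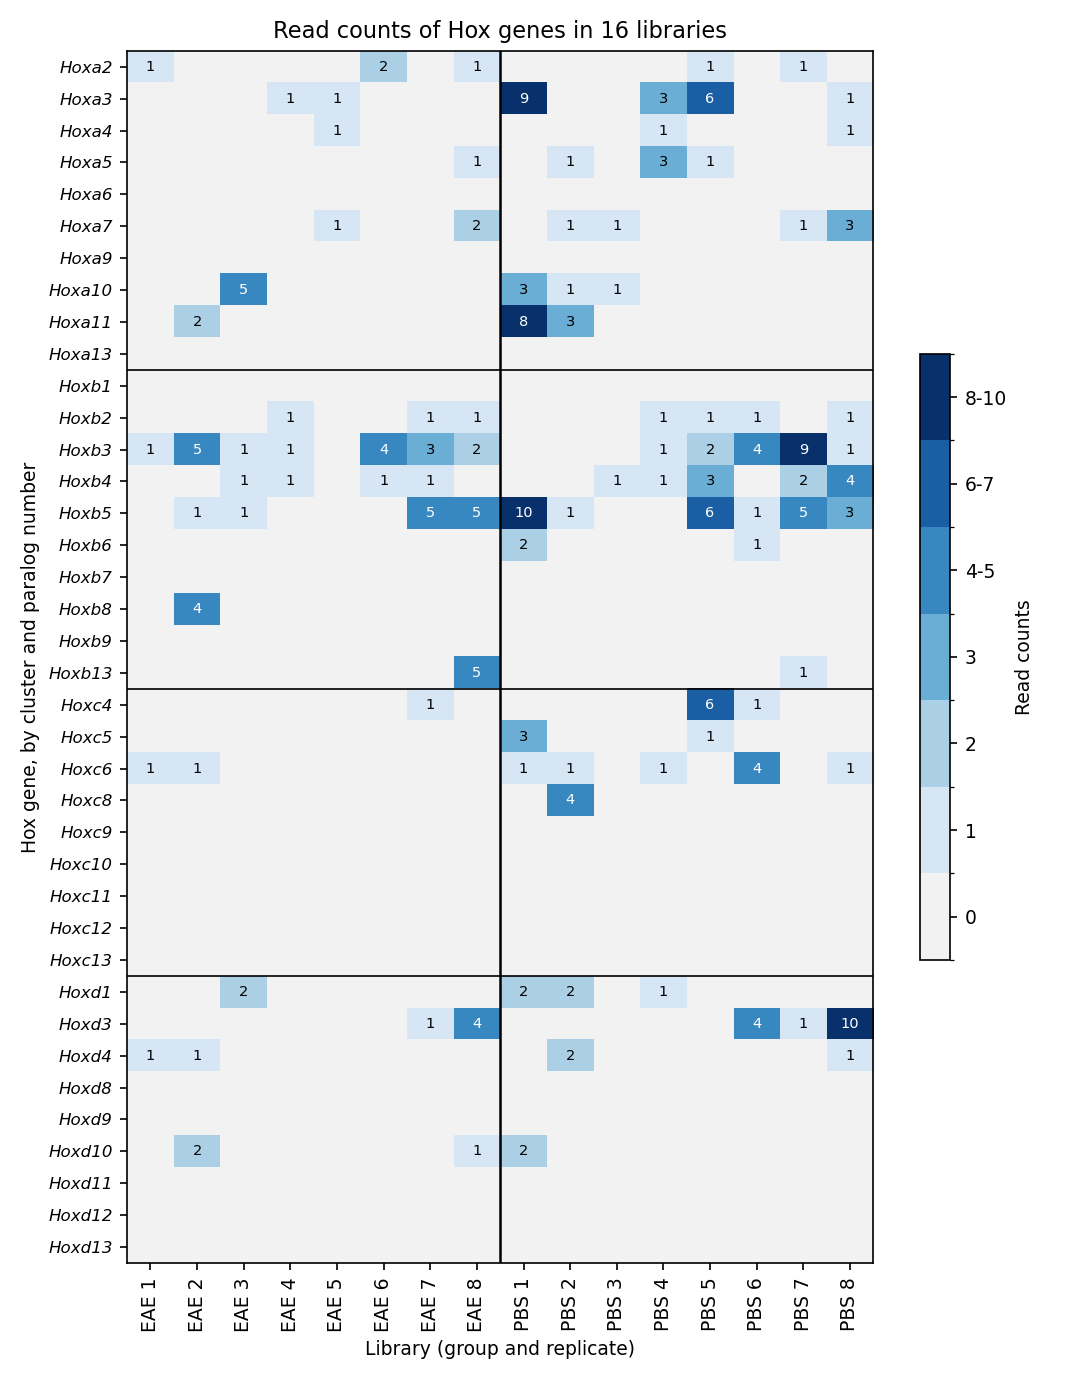
Read counts of Hox genes (rows, by cluster and paralog number) in each of the 16 libraries (columns, EAE to the left of the vertical line and PBS to the right), with empty cells for 0. Counts above 3 are rare in both groups, and 16 rows are empty throughout.

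Detection followed the paralog number. Of the 12 genes in paralog groups 1 to 4, whose known domains include the hindbrain, 11 had counts, and the one that did not was Hoxb1, a gene of a single hindbrain segment. Of the 11 genes in groups 5 to 8, 8 had counts. Of the 16 genes in groups 9 to 13, which pattern the posterior trunk and the limbs, 4 had counts. These 4 were Hoxa10, Hoxa11, Hoxb13 and Hoxd10, and no gene of paralog groups 9 and 12 had any. The summed counts of groups 1 to 4 were 54 in EAE and 101 in PBS libraries. They were 22 and 56 for groups 5 to 8, and 15 and 19 for groups 9 to 13.

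In summed CPM, which is not scaled by gene length, groups 1 to 4 reached 0.254 ± 0.0671 (SD, n = 8) in EAE and 0.417 ± 0.255 in PBS libraries. Groups 5 to 8 reached 0.105 ± 0.121 and 0.237 ± 0.168, respectively. Groups 9 to 13 reached 0.0742 ± 0.105 and 0.0858 ± 0.172. The PBS means were the higher in all of these sets, and the groups were not tested on such sums. On the summed FPKM scale, which is scaled by length, groups 1 to 4 stood at 0.0768 ± 0.0187 in EAE and 0.120 ± 0.0715 in PBS libraries. Groups 5 to 8 stood at 0.0474 ± 0.0600 and 0.106 ± 0.0831. For groups 9 to 13 the means were nearly equal on this scale, 0.0363 ± 0.0591 in EAE and 0.0352 ± 0.0682 in PBS libraries.

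The 4 clusters were also unequal. In the Hoxb cluster, 7 of 10 genes had counts, 45 in EAE and 62 in PBS libraries. In the Hoxa cluster, 8 of 11 genes had 31 and 66 counts. In the Hoxd cluster, 4 of 9 genes had 12 and 25 counts. In the Hoxc cluster, 4 of 9 genes had counts, and these were Hoxc4, Hoxc5, Hoxc6 and Hoxc8. The EAE libraries held 3 Hoxc counts, 1 in each of 3 libraries, and the PBS libraries 23, where the highest library held 7 and 2 libraries held none. The Hoxc values of the groups therefore overlapped at 0 and 1.

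The gene models give the positions of the clusters and show which members share transcribed bases with neighbours. In the GENCODE vM21 annotation of GRCm38, the build of the alignment, the Hoxa genes span chr6:52155590-52260880 and the Hoxb genes chr11:96194316-96368256. The Hoxc genes span chr15:102921103-103036852 and the Hoxd genes chr2:74668310-74765142. Exonic bases of 9 members are shared with another gene on the same strand. Hoxd3 and Hoxd4 share the most, with 62.3% and 52.3% of their exonic bases, so the division of 20 and 5 counts between them is uncertain. Hoxc5 and Hoxc10 overlap as well. These shares and those below belong to GENCODE, and the gene models behind the counts can differ from it. The length implied by counts and FPKM was 8699 bases for Hoxb3 and 7834 for Hoxa3, against 4251 and 6014 exonic bases in GENCODE. The lengths also differed for most other members with counts, such as Hoxc6 at 10979 against 2408 bases and Hoxb5 at 1896 against 2786. They were equal for Hoxa2, Hoxa5, Hoxd1 and Hoxb4, the last at 2566 bases.

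Exonic bases of 10 members are shared with a gene on the opposite strand, most of them antisense RNAs of the clusters. The share was 52.9% for Hoxb3 with Hoxb3os, 35.0% for Hoxa11 with Hoxa11os and 25.4% for Hoxa3. All 10 of these members had counts, against 13 of the other 29, and all 5 tested members were among them. They held 179 of the 267 Hox counts, or 67%, on 31.8% of the exonic bases of the members in GENCODE. This contrast was seen in the data first and is given without a test. The library kit keeps strand, but the strand setting of the counting is not given in the sources used here, so reads of these members and of their antisense partners cannot be told apart.

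Promoter windows were found for 22 of the 39 Hox genes in the RefSeq annotation of GRCm38.p6. Such promoters are known to be rich in CG dinucleotides and to be held silent by Polycomb complexes outside their domains. The 250 bases before the start of transcription held a median of 12.5 CG dinucleotides in the 24 Hox windows, with a range of 2 to 35, and a median of 6 in all 32851 windows. In all windows, 92.1% held at least 1 CG. The median was 12.5 for the 14 windows of Hox genes with counts and 11.5 for the 10 windows of those with none. The window of Hoxa3 is shown because Hoxa3 had the smallest p-value among the members tested. It is set beside that of Hoxb1, the hindbrain gene with no counts, and CG dinucleotides are in capitals. The Hoxa3 window lies on the minus strand at chr6:52213068-52213317 and holds 18, and the Hoxb1 window lies on the plus strand at chr11:96365508-96365757 and holds 7. Both windows follow RefSeq starts, which differ from GENCODE. The GENCODE gene of Hoxa3 spans chr6:52169062-52213336 and contains its window, and that of Hoxb1 starts at chr11:96365752, inside its window. CG is its own reverse complement, so both strands give the same number.
Hoxa3: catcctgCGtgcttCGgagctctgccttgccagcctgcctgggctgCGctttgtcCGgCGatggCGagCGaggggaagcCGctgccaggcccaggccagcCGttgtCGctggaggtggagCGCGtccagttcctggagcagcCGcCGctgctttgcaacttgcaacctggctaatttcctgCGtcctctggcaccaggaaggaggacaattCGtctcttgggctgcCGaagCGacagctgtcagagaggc
Hoxb1: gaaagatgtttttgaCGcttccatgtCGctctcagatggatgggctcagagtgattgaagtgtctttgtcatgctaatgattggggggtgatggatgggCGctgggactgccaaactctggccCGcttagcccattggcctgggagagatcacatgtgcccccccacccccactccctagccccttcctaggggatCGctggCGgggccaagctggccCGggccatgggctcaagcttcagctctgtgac

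The summed Hox level was lower on average in EAE libraries, and the groups overlapped. Total counts per library ranged from 24587443 to 34184576, and the Hox counts per library were 6, 19, 11, 4, 9, 8, 12 and 22 in EAE 1 to EAE 8. They were 45, 17, 4, 12, 35, 17, 20 and 26 in PBS 1 to PBS 8. The lowest library of both groups thus held 4 counts, and PBS 1 and PBS 5 stood above every EAE library. The summed CPM was 0.433 ± 0.249 (SD, n = 8) in EAE and 0.740 ± 0.485 in PBS libraries, with ranges of 0.154–0.869 and 0.147–1.73. The log2 ratio of the group means was −0.77, and it was not tested, since it is a sum over members. In bulk RNA, fewer cells of a type and less RNA per cell cannot be told apart.

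PBS 1 and PBS 5 held 80 of the 176 Hox counts of the PBS group, or 45.5%. Without PBS 1 the log2 ratio was −0.47, and without both it was −0.26, with a mean of 0.520 CPM in the remaining PBS libraries. Within EAE 6, 7 and 8 and PBS 5, 7 and 8, a set chosen with earlier results of these data known, the log2 ratio was −0.63. In the remaining 5 EAE and 5 PBS libraries it was −0.88. Libraries of 1 group differed by more than counting error. The exact Poisson 95% interval of PBS 1 was 1.26–2.31 CPM, and that of PBS 3 was 0.0401–0.377 CPM.

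**Figure D2:**
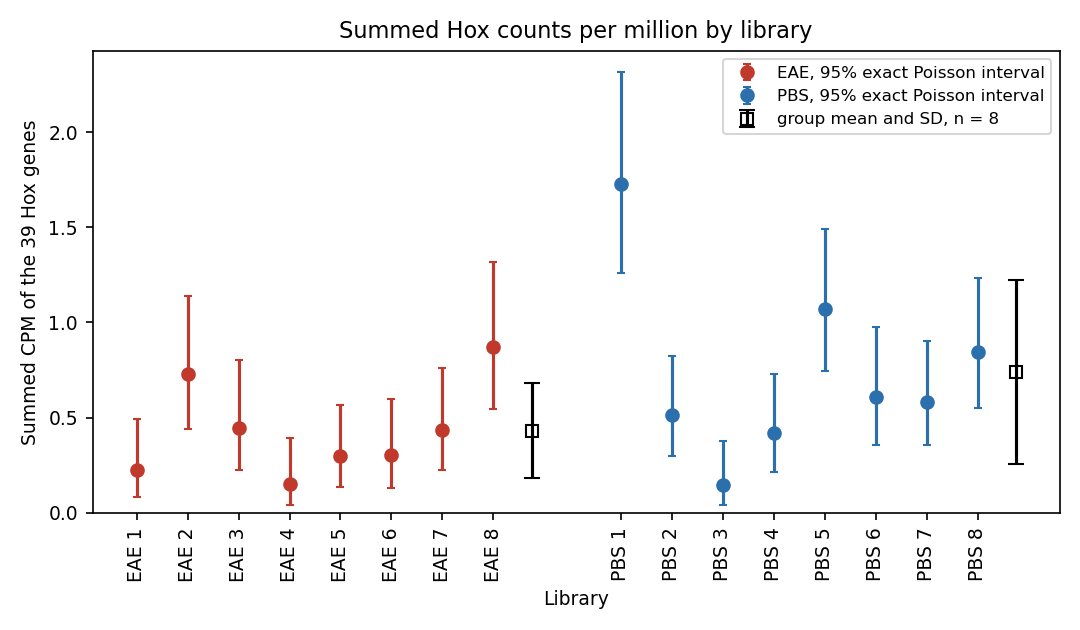
Summed CPM of the 39 Hox genes in each library, with exact Poisson 95% intervals as bars, and the mean and SD of each group as open squares. EAE libraries lie between 0.154 and 0.869 and PBS libraries between 0.147 and 1.73, so that the groups overlap over the whole EAE range.

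Differential expression was tested with edgeR's quasi-likelihood test over all 17885 mRNAs with at least 16 counts, and p-values were adjusted over all of them (Benjamini-Hochberg). At an adjusted p under 0.05, none of the 5 Hox genes tested was higher or lower in EAE mice, where 2.42% of all mRNAs tested passed. At an unadjusted p under 0.05, 1 of the 5 passed, where 17.4% of all mRNAs tested did. DESeq2 gave none at an unadjusted p under 0.05. The log2FC was below 0 for 4 of the 5, where it was below 0 for 47.3% of all mRNAs tested. The median log2FC was −0.93 for the 5 Hox genes and 0.01 for all mRNAs tested. With Hoxa3, whose EAE libraries were all at or under 3 counts, set to 0, the median of the 5 was −0.19. The other 34 Hox genes had too few counts for this test.

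Hoxa3, which patterns the caudal hindbrain and the pharyngeal arches, was the member that passed at the unadjusted threshold. It had 0 counts in 6 EAE libraries and 1 in EAE 4 and EAE 5. In PBS libraries they were 9, 6, 3 and 1 in PBS 1, PBS 5, PBS 4 and PBS 8, and 0 in the other 4. At least 4 libraries of each group were therefore at 0 and the groups overlapped at 0 and 1, while all values above 1 belonged to 3 PBS libraries. In the edgeR test its fitted log2FC was −2.67, with an SE of 1.10, an unadjusted p of 0.0238 and an adjusted p of 0.205. This log2FC depends on the prior count and is no bound, since the EAE libraries were at or under 3 counts and the PBS mean was also under 3. The mean FPKM was 0.00114 ± 0.00212 (SD, n = 8) in EAE and 0.0106 ± 0.0160 in PBS libraries. The exact permutation test over all divisions of the libraries into 8 against 8 gave a two-sided p = 0.161 on these FPKM values. Without PBS 1 the unadjusted edgeR p was 0.0956, and without PBS 5 it was 0.0534.

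Hoxb5, a gene of the caudal hindbrain and cervical cord, had the highest mean FPKM of the Hox genes, 0.0440 over the 16 libraries. Its counts ranged from 0 to 5 in EAE libraries, with a median of 0.5, and from 0 to 10 in PBS libraries, with a median of 2. The highest values were 10 in PBS 1, 6 in PBS 5 and 5 in EAE 7, EAE 8 and PBS 7, and the groups overlapped. In the edgeR test its log2FC was −0.93, with an SE of 0.87 and an adjusted p of 0.630.

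Hoxd3, which acts with Hoxa3 in the upper cervical region, was at 0 in 6 EAE and 5 PBS libraries. Its counts were 4 in EAE 8 and 1 in EAE 7. In the PBS group they were 10, 4 and 1 in PBS 8, PBS 6 and PBS 7. Of these 5 libraries, 4 belong to the set of EAE 6, 7 and 8 and PBS 5, 7 and 8. In the edgeR test its log2FC was −1.28, with an SE of 1.11 and an adjusted p of 0.593. It was −0.05 without PBS 8 and −2.81 without EAE 8, with an unadjusted p = 0.0408 from the same edgeR test and an adjusted p of 0.310 in the latter case.

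Hoxb3 is described because it also had enough counts for the test. Its counts ranged from 0 to 5 in EAE libraries, with a median of 1.5, and from 0 to 9 in PBS libraries, with a median of 1. Both groups held 17 counts in total, detected in 7 EAE and 5 PBS libraries. In the edgeR test its log2FC was 0.17, with an SE of 0.79 and an adjusted p of 0.941, and its sign changed with the library left out.

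**Figure D3:**
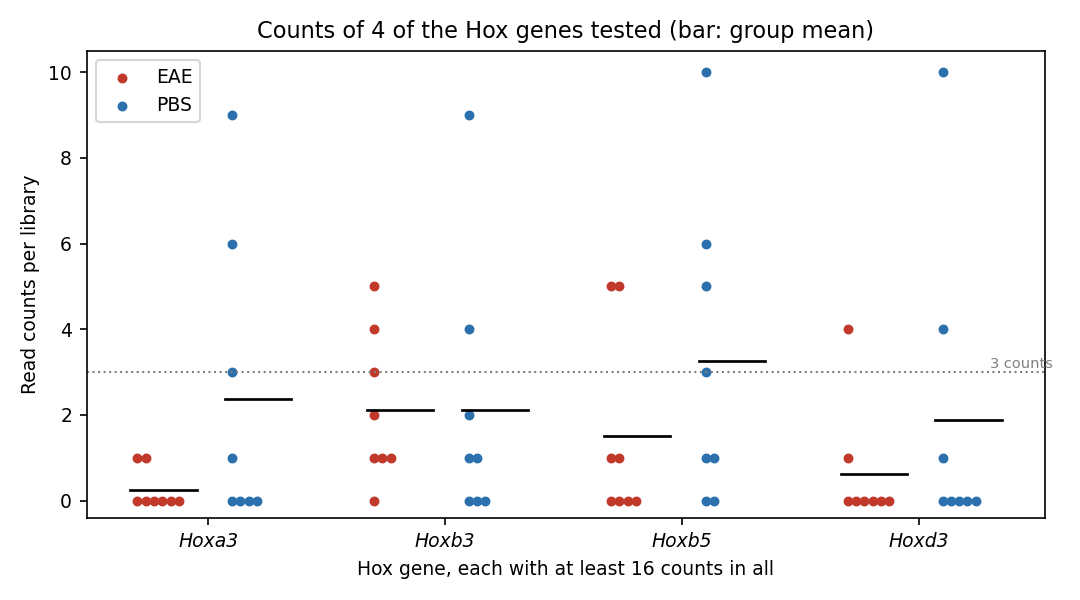
Read counts per library of 4 Hox genes with at least 16 counts in all, EAE in red and PBS in blue, with the mean of each group as a bar and 3 counts, the limit that a count of 0 allows, as a dotted line. The groups overlap for all 4 genes, and for Hoxa3 no EAE library is above 1 count.

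Besides Hoxb5 and Hoxd3, the Hox genes with the highest mean FPKM included Hoxa11, Hoxb4, Hoxb13, Hoxa7 and Hoxd1, which had too few counts for the edgeR test. Hoxa11, a limb and kidney gene, had 2 counts in EAE 2, 8 in PBS 1 and 3 in PBS 2, and 0 in the other 13 libraries. Hoxb4, a gene of the most caudal hindbrain, had at most 1 count in EAE libraries, where 4 had none, and at most 4 in PBS libraries, where 3 had none. Hoxb13, known for its role in the prostate and the tail bud, had 5 counts in EAE 8 and 1 in PBS 7. Hoxa7 had at most 2 counts in EAE and 3 in PBS libraries, and Hoxd1 at most 2 in both groups. The exact permutation tests on the FPKM of these 7 genes gave two-sided p-values of 0.222 to 1, with the lowest for Hoxb4. The smallest possible value is 0.0001554 only where no libraries are tied, and ties at 0 raise it. With counts in only 2 libraries for Hoxb13 and 3 for Hoxa11, their tests could not give a small p-value whatever the group difference. In 10 of the 23 Hox genes with counts, 1 library held at least as many counts as the other 15 together.

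Genes that act with or upstream of Hox proteins ranged from 0 counts to levels far above those of the Hox genes, and none of those tested passed the adjusted threshold. The TALE homeobox genes of the Meis, Pbx and Pknox families encode the cofactors with which Hox proteins bind DNA. All 9 were detected in every library, at a median of 7.97 FPKM over genes, where the median of the 39 Hox genes was 0.00334 FPKM. Of the 9, 1 had an unadjusted p under 0.05.

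Retinoic acid is the signal that induces Hox expression in the hindbrain. Of its 11 enzymes, receptors and binding proteins, none passed the adjusted threshold and 3 had an unadjusted p under 0.05. The smallest p-values were those of Cyp26b1, which degrades retinoic acid (log2FC −0.38, adjusted p = 0.0731 from the edgeR test), and Aldh1a1, which makes it (log2FC −0.38, adjusted p = 0.0818). Of the 7 other transcriptional regulators of Hox genes, 4 were tested and none had an unadjusted p under 0.05. Egr2 (Krox20), a gene of alternating hindbrain segments, stood at 0.374 FPKM, and the trunk regulators Cdx1, Cdx2 and Cdx4 had 15, 1 and 0 counts. The 10 Polycomb and Trithorax genes, which hold Hox clusters silent or active, were detected in every library at a median of 7.40 FPKM, and none had an unadjusted p under 0.05.

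Genes that flank the clusters were not at the level of the Hox genes. Of 9 flanking genes, 7 were detected in every library, and the median over the 9 was 2.26 FPKM. The highest were Hibadh beside the Hoxa cluster at 21.1 FPKM, Calcoco1 beside the Hoxc cluster at 23.8 FPKM and Mtx2 beside the Hoxd cluster at 13.1 FPKM. Beside the Hoxb cluster, Skap1 stood at 0.492 FPKM and Ttll6 at 0.278 FPKM. The 2 exceptions were the homeobox genes Evx1, with 38 counts at 0.0306 FPKM, and Evx2, with 23 counts at 0.00942 FPKM. No flanking gene had an unadjusted p under 0.05.

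Markers of brain regions were compared on the FPKM scale to check what the Hox level can be read against. The 14 genes of hindbrain neurons had a median of 0.142 FPKM, from 0.00557 to 3.20, the latter for Glra1, the glycine receptor of brainstem and spinal cord. The 11 cerebellar genes had a median of 0.250 FPKM and the 5 midbrain genes 0.155 FPKM. The 14 forebrain genes, among them Tbr1 at 14.5 FPKM, had a median of 4.71 FPKM and were above 3 counts in every library. Of the hindbrain genes, 7 of 14 were above 3 counts in every library.

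Of the 12 hindbrain genes tested, none had an unadjusted p under 0.05. The smallest p-values were those of the glycine transporter Slc6a5, whose edgeR log2FC was −0.58 with an SE of 0.30 and an adjusted p of 0.325, and of Glra1, with −0.22 (SE 0.12, adjusted p = 0.388). Of the cerebellar and forebrain genes, none passed the adjusted threshold, and the smallest p-values were those of Fat2 (log2FC −0.74, adjusted p = 0.0710 from the edgeR test) and Bcl11b (log2FC −0.26, adjusted p = 0.0630). The dopamine transporter Slc6a3, a midbrain gene, was lower in EAE mice, and its edgeR log2FC was −0.49 with an SE of 0.13 and an adjusted p of 0.0495. Of the 16 edgeR fits that each left out 1 library, it passed in 4, those without EAE 4, EAE 7, PBS 4 or PBS 6, with adjusted p-values of 0.0108 to 0.103 over all 16.

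**Figure D4:**
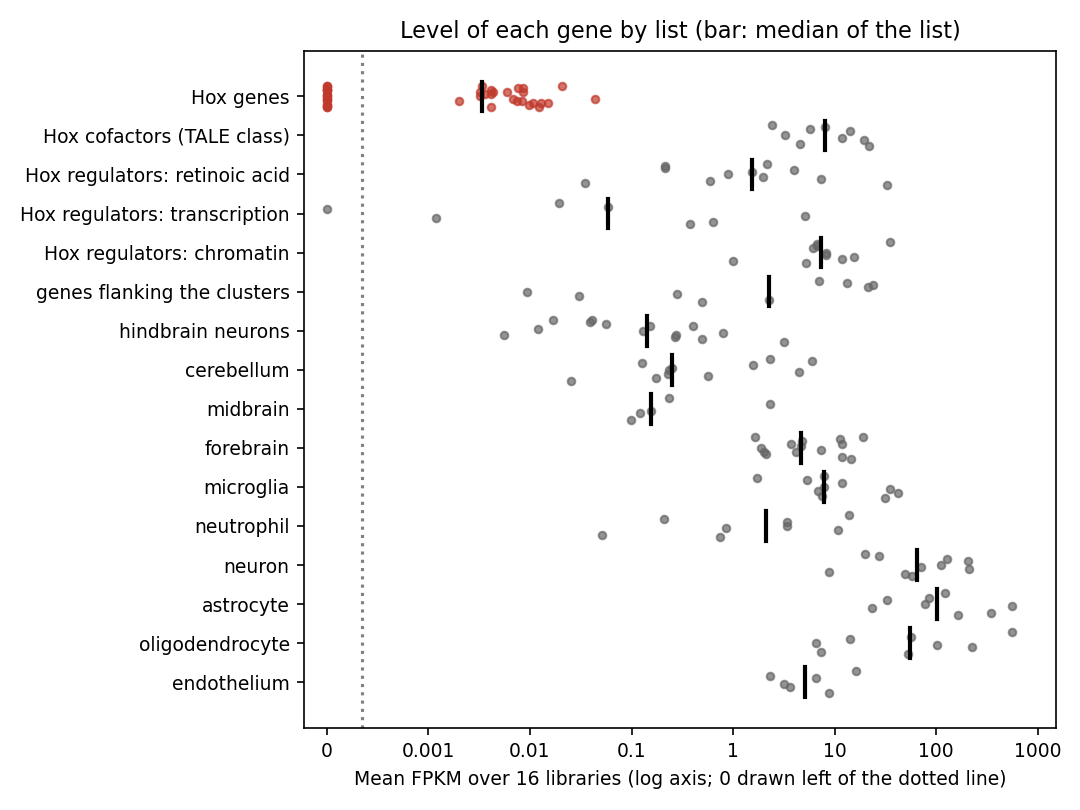
Mean FPKM over 16 libraries of every gene in each list, on a log axis with values of 0 drawn left of the dotted line and the median of each list as a bar. The Hox genes, in red, lie at or below 0.0440 FPKM, and the hindbrain neuron genes lie between 0.00557 and 3.20 FPKM.

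The marker levels went against the label of sorted microglia, since markers of other brain cells stood above those of microglia. The 10 microglia markers had a median of 7.89 FPKM, and the medians of the neuron, astrocyte and oligodendrocyte markers were 64.2, 103 and 54.7 FPKM. Those of the endothelial and neutrophil markers were 5.11 and 2.13 FPKM. The summed level of the neuron markers was 814–931 FPKM in EAE and 868–945 FPKM in PBS libraries. Of these lists, 1 of 10 microglia, 4 of 8 neutrophil and 1 of 8 astrocyte markers were higher in EAE mice at an adjusted p under 0.05, 2 of 10 neuron markers were lower, and none of the oligodendrocyte and endothelial markers passed (edgeR, where 2.42% of all mRNAs tested passed in either direction). The 4 neutrophil calls held whichever of the 16 libraries was left out. Trem2, the microglia marker called, was lost without EAE 2, PBS 2, PBS 3, PBS 5 or PBS 7. Gfap, the astrocyte marker called, was lost without EAE 1, EAE 2, EAE 3, EAE 8, PBS 1, PBS 2 or PBS 3, and the log2FC of the other 7 astrocyte markers was below 0. Its log2FC was −0.05 within EAE 6, 7 and 8 and PBS 5, 7 and 8. The neuron markers Syt1 and Nefh passed in 8 and 10 of these 16 fits. Syt1 was lost without EAE 1, EAE 2, EAE 3, EAE 8, PBS 2, PBS 3, PBS 5 or PBS 7, and Nefh without EAE 1, EAE 2, EAE 6, EAE 8, PBS 2 or PBS 7. The part of such cells in the Hox counts was not tested.

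Across the 16 libraries, the hindbrain markers varied in how they moved with the summed Hox level. Values for lists were taken against the summed Hox FPKM, and values for single genes against the summed Hox CPM. Spearman's rank correlation between the summed Hox FPKM and the summed FPKM of the hindbrain neuron list was −0.13, and Pearson's r was −0.27. Without PBS 1 and PBS 5, the libraries farthest from the median in summed Hox CPM, r was −0.11. PBS 1, with the highest Hox sum, had a hindbrain sum of 4.36 FPKM, the lowest of the PBS group. Glra1, at 3.20 FPKM, makes up much of the hindbrain sum, and its own rank correlation with the summed Hox CPM was −0.01. Single hindbrain genes ranged from −0.34 for Phox2a to 0.64 for Lmx1b, with 0.49 for Dbh and 0.46 for Slc6a5 and a median of 0.07. For the cerebellar list the rank correlation was −0.08 and r was −0.30. For the midbrain list the rank correlation was 0.43 and r was 0.45, falling to 0.20 without those 2 libraries. For the forebrain list the rank correlation was 0.41 and r was 0.14, rising to 0.46 without them. Within groups, the rank correlation with the hindbrain list was −0.26 in EAE and 0 in PBS libraries. With 4 to 45 Hox counts behind each library, and depth shared by both measures of a library, these values are descriptions and carry no p.

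The rank correlation with the summed Hox FPKM over all libraries was −0.41 for the microglia list, −0.22 for neurons, −0.19 for astrocytes and −0.29 for oligodendrocytes. Within EAE and within PBS libraries it was −0.33 and −0.29 for microglia, −0.55 and −0.57 for neurons, −0.36 and −0.38 for astrocytes, and −0.62 and −0.60 for oligodendrocytes. Over all libraries it was 0.04 for endothelium and 0.03 for neutrophils. For the cofactors it was 0.42, and for the retinoic acid, transcriptional and chromatin regulators it was −0.21, −0.11 and 0.25. It was 0.08 for the flanking genes, with −0.12 in EAE and 0.76 in PBS libraries.

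**Figure D5:**
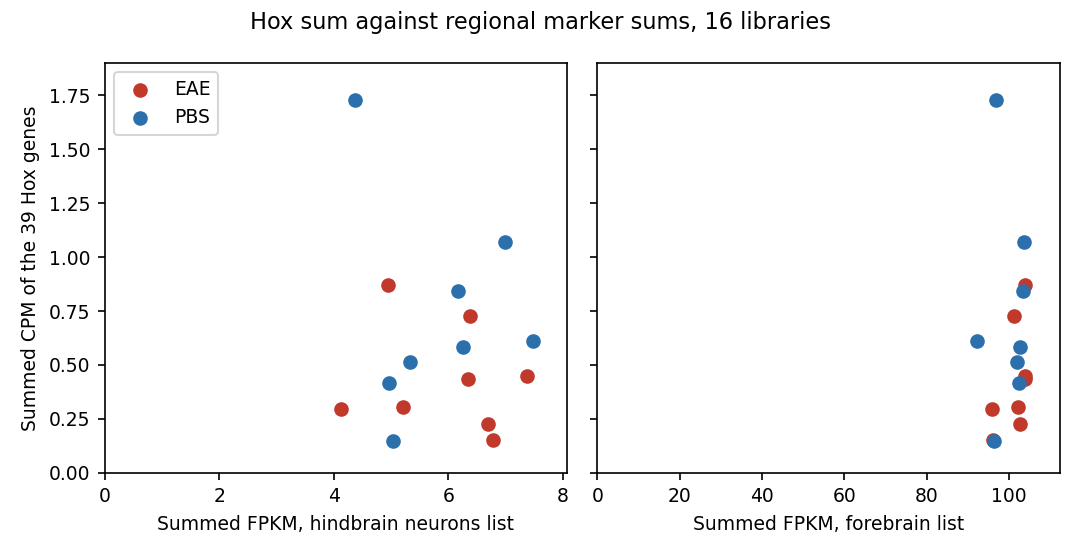
Summed CPM of the 39 Hox genes against the summed FPKM of the hindbrain neuron list (left) and of the forebrain list (right), with 1 point per library, EAE in red and PBS in blue. The hindbrain sum, of which Glra1 makes up much, spans 4.13 to 7.47 FPKM, and the forebrain sum spans 92.3 to 104 FPKM. The rank correlation of −0.13 for the hindbrain list was taken with the summed Hox FPKM, which is not drawn.

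The CPM of 14761 other mRNAs with a mean of at least 1 CPM was compared with the summed Hox CPM over the 16 libraries. The 10 that ranked most like it were Pex14, Shisa6, Cited2, Kcnh6, Otop2, Inpp5j, Pwwp2b, Fiz1, Ppp1r13b and Dhx9. Their rank correlation was between 0.76 and 0.85, where the median over all these mRNAs was −0.02. Pex14, which docks import receptors at the peroxisome, had the highest, 0.85, and 0.78 without PBS 1 and PBS 5. Shisa6, an auxiliary protein of AMPA receptors, had a value of 0.84, with 0.90 in EAE and 0.76 in PBS libraries. None of the 10 is a member of the hindbrain list, and none passed the adjusted threshold between groups. They were picked as the highest of many, so their values describe these libraries only.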

How the data were processed

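RNA was measured in 16 libraries labelled as microglia and described as sorted, 8 EAE and 8 PBS, grouped by the sample labels. The authors removed low-quality reads, aligned the rest to GRCm38 with HISAT2 (version 2.1.0 in the submitters' processing notes), counted them with HTSeq (version 0.11.2) and deposited raw counts per mRNA and FPKM values. The strand setting and the length model of the FPKM values are not given in the sources used here. All columns of both tables were used. Total counts were 24587443 to 34184576 per library.

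From the counts, edgeR (version 4.0.16) quasi-likelihood tests with TMM normalization were computed for mRNAs with at least 16 counts in total, with Benjamini-Hochberg adjustment over all of them. The study's notes name DESeq2 (version 1.22.2), and its methods also name edgeR. CPM used the total counts of each library. FPKM served for levels between genes and for exact permutation tests. Alternatives were edgeR's exact test, RLE size factors, other count filters, a replicate block, a term for a set of libraries, fits within sets of libraries, leaving out each library, DESeq2 (version 1.42.0) and limma (version 3.58.1) on log2(FPKM + 0.1) and log2(FPKM + 0.01). Means are given with SDs, and 3 counts are the limit that a count of 0 allows at 95% confidence.

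The Hox genes, gene lists and library sets were chosen with earlier results of these data known. The genes named were the 8 Hox genes with the highest mean FPKM, every Hox gene with an unadjusted p under 0.05, and Hoxa3. The study lists Hoxa3 among its differentially expressed mRNAs, at an FDR under 0.05 that Hoxa3 did not pass here. Also named were list genes with an adjusted p under 0.05 or the smallest p-values in their list, and the 10 genes most like the summed Hox CPM. Called markers of other cells are given by their counts, and Hoxb3 and other members were named after their values were seen. Some genes that the rule names are not reported here. Gene positions came from GENCODE vM21 and promoter sequences from RefSeq, both on GRCm38. Each library is labelled as a separate mouse. The same replicate numbers occur in both groups, but 5 of the 8 same-numbered pairs had negatively correlated deviations, so the numbers were not taken to pair the libraries.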

Additional observations from a re-analysis of the deposited data

Results flagged for a closer look

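Of 30 sets of 8 libraries, made of the summed CPM of all Hox genes, of each cluster and of the FPKM of the named Hox genes in each group, 10 had a library far from the others. The gap between the highest library and the next, divided by the range of the group, was above Dixon's 95% critical value in these 10. Chance flags about 1 in 20 sets, and sets in which most libraries are at 0 are flagged by 1 or 2 counts.

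The Hoxd cluster reached 0.357 CPM in PBS 8, where the next PBS library was at 0.154 CPM. For Hoxd3, PBS 8 was at 0.112 FPKM (10 counts) and EAE 8 at 0.0544 FPKM (4 counts). For Hoxa11, PBS 1 was at 0.134 FPKM (8 counts) and EAE 2 at 0.0335 FPKM (2 counts). For Hoxb13, EAE 8 was at 0.150 FPKM (5 counts) and PBS 7 at 0.0223 FPKM (1 count), and all other libraries of both groups were at 0. For Hoxa7, EAE 8 was at 0.0405 FPKM (2 counts) and PBS 8 at 0.0498 FPKM (3 counts). For Hoxd1, EAE 3 was at 0.0437 FPKM (2 counts). The summed Hox CPM itself gave no such library in either group.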

How the results depend on the processing

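No Hox gene passed an adjusted p under 0.05 in the alternatives that gave one. Of the 27 alternatives, DESeq2 gave no adjusted p for the Hox genes, and edgeR's default filter left 0 of them to test. The number with an unadjusted p under 0.05, 1 in the main analysis, was 0 with that filter, with the replicate block, within either set of libraries, with DESeq2 and with both limma settings. It ranged from 0, without PBS 1 or PBS 5, to 2, without EAE 8. The numbers were not taken to pair the libraries, since that requires a correlation of deviations above 0.1 in every same-numbered pair. It was 0.49, 0.16 and 0.21 for numbers 4, 7 and 8, each most like its own number, and −0.20 to −0.13 for the other 5. With the replicate block, the unadjusted edgeR p of Hoxa3 was 0.0521 and the median log2FC of the 5 genes was −0.92. This median was −2.27 within the 5 libraries of each group outside the set of 6 and −0.12 with limma on log2(FPKM + 0.1). It ranged from −1.48, without EAE 8, to −0.38, without PBS 1 or PBS 8. The log2 ratio of the summed CPM ranged from −0.997, without EAE 8, to −0.47, without PBS 1. The ratio without both PBS 1 and PBS 5 was chosen after seeing the data.

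The sign of the log2FC of Hoxb3 was reversed within the set of 6 libraries (−0.12), without EAE 2 (−0.13), EAE 6 (−0.02), PBS 1 (−0.0012), PBS 2 (−0.02) and PBS 3 (−0.0026), and with 1 library left out it lay between −0.13 and 0.93. Hoxa3, Hoxb5 and Hoxd3 kept a log2FC below 0 in the alternatives run. With no filter, 23 Hox genes were tested, and their median log2FC was −0.91. Depth limits all of these values, since no Hox gene had more than 10 counts in a library.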
